A study of Mus musculus with 2 samples.

Results

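The genes described here are a fixed set of 10 disease-associated microglial genes around the TREM2 receptor and apolipoprotein E: Trem2, Tyrobp, Apoe, Spp1, Lpl, Cst7, Itgax, Clec7a, Gpnmb and Axl. The set was given by name and not by measured values, though with earlier results of these data known. Of the 10 genes, 9 were matched by gene identifier among the 32285 genes of the count matrices. Clec7a was not analysed here. The study compared cells from the brains of CD200R1 -/- mice (labelled KO) with cells from C57BL/6J mice (labelled WT), all aged 18 months and untreated. CD200R1 is the receptor through which the ligand CD200 restrains myeloid cells. The animals were perfused, the brains were dissociated, and cells carrying CD11b were collected with magnetic particles and profiled by droplet-based single-cell RNA-seq with 3′ counting of unique molecular identifiers (UMIs, 1 per captured transcript). There was 1 library per genotype, so no difference between the libraries could be tested, and the number of mice behind each was not stated. Intervals given below are exact 95% intervals that cover counting error only.

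TREM2 is a lipid-sensing receptor of microglia, the resident macrophages of the brain, and signals through the adaptor protein TYROBP (DAP12). In mouse models of amyloid deposition, demyelination and ageing, a fraction of microglia lose homeostatic gene expression and raise a shared set of genes for lipid handling, lysosomal function and adhesion, a state known as disease-associated microglia. APOE, a secreted lipid carrier that binds TREM2, is itself raised in that state, and the later step of it is known to depend on Trem2.

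The genes lay on 6 mouse chromosomes in the GRCm38 annotation: Trem2 on chromosome 17, Tyrobp, Apoe, Itgax and Axl on 7, Spp1 on 5, Lpl on 8, Cst7 on 2, and Gpnmb and Clec7a on 6. The 250 bases before the annotated start of 8 of the 10 genes were read from RefSeq (GRCm38.p6) and searched on both strands for 5 motifs: the E-box CACGTG and the M-box TCATGTG bound by the MITF and TFE factors, the PU.1 and ETS site GAGGAAGT, the AP-1 site TGANTCA and the TATA box TATAAA. The windows of Trem2, Spp1, Itgax and Gpnmb are shown, in capitals where a motif matched. These are the receptor and a choice of 3 genes whose levels differed between libraries or sub-clusters. Apoe, Cst7 and Axl also differed between sub-clusters and had an entry, but are not shown. Tyrobp and Lpl had no entry. The windows shown were chosen with those levels known.
Trem2: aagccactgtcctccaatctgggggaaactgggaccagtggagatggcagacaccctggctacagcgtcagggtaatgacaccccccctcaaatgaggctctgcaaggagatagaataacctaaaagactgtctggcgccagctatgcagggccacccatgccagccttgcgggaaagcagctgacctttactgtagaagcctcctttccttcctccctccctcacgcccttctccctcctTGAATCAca
Spp1: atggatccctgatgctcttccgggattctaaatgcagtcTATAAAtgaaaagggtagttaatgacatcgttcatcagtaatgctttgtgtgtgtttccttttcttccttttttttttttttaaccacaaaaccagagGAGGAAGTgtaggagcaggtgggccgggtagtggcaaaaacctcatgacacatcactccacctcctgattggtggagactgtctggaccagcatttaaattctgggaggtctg
Itgax: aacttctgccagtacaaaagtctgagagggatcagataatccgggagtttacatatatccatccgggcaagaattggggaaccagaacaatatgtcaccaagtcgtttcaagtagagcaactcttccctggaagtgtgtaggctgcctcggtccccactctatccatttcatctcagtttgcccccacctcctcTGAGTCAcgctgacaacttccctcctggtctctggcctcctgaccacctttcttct
Gpnmb: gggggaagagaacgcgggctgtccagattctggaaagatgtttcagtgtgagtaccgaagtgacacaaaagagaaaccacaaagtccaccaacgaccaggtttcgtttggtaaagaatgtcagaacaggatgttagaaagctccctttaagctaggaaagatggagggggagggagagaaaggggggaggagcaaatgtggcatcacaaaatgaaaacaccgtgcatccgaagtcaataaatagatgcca
The Trem2 window (chr17:48346151-48346400, plus strand) held the AP-1 letters starting at -9, counted back from -1 as the last base before the start. The Itgax window (chr7:128129300-128129549, plus strand) held them starting at -56. The Spp1 window (chr5:104434861-104435110, plus strand) held the TATA box at -211 and the PU.1 and ETS letters at -113. The windows of Gpnmb (chr6:49036268-49036517, plus strand), Apoe, Cst7, Axl and Clec7a matched none of the 5 motifs. Among all 32851 windows of this length, 6.75% held TGANTCA, 2.44% GAGGAAGT, 12.4% TATAAA, 6.02% CACGTG and 3.25% TCATGTG. A match is a description of these letters and not of a bound site.

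The matrices held 19159 barcodes and 131196245 UMIs in the library labelled KO, and 18228 barcodes and 127429919 UMIs in the library labelled WT. After filters, 16935 cells labelled KO and 16357 cells labelled WT were kept, with a median of 4167 and 4033 UMIs. The doublet caller marked 4.10% of the cells labelled KO and 1.47% of those labelled WT, against 15.3% and 14.6% expected from loading. The libraries shared 103 barcodes, 81 of them among the kept cells. The targeted gene, Cd200r1, was at 12.0 CPM (CPM are UMIs scaled to the same total in each class and library; 1388 UMIs) in the library labelled KO and at 12.7 CPM (1461 UMIs) in the library labelled WT, a ratio of 0.945 (0.877 to 1.02). In microglia-like cells the ratio was 0.921 (0.839 to 1.01), and in CNS-associated macrophage-like cells the level was 26.2 CPM labelled KO and 43.3 CPM labelled WT (ratio 0.604, 0.464 to 0.785). Cd200r1 was thus read in both libraries, and was lower in macrophage-like cells labelled KO. This whole-gene 3′ count may lie outside the deleted part, and it does not settle whether the labels are right, so the libraries are named by their labels throughout. Cells were clustered without the 9 genes, and clusters were named "X-like" from marker genes. Clusters holding 26.5% of the cells labelled KO and 30.5% of those labelled WT stayed unnamed. Some of these had low UMI counts and microglia as their largest marker class. Counting them in would take the microglia-like class from 4406 to 7033 cells labelled KO and from 3829 to 7335 labelled WT. Of the named classes, 12 had at least 50 cells in each library. Itgam, which encodes the CD11b used for collection, was at 474 and 450 CPM in microglia-like cells (labelled KO and WT), against 29.8 and 29.1 CPM in endothelial-like cells.

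The receptor and its adaptor followed the myeloid classes. Trem2 was highest in microglia-like cells in both libraries, at 1791 CPM in 4406 cells labelled KO and 1713 CPM in 3829 cells labelled WT. The next classes were the CNS-associated macrophage-like cells (1341 CPM labelled KO, 1147 CPM labelled WT), which line vessels, meninges and choroid plexus, then neutrophil-like and monocyte-like cells. The microglia-like level was above that of each other class beyond counting error in both libraries. Tyrobp, which also pairs with many other myeloid receptors, was spread more evenly: it reached 2734 CPM in microglia-like, 2687 CPM in neutrophil-like and 2614 CPM in macrophage-like cells labelled KO, whose intervals overlapped. In cells labelled WT it was at 2486 CPM in microglia-like, 2639 CPM in neutrophil-like and 2238 CPM in macrophage-like cells.

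Trem2 was also read in classes that should lack it, and in most of them it moved with the microglial markers. The source of the Trem2 and marker UMIs in these classes, including expression by the classes themselves, was not tested. In T cell-like cells Trem2 stood at 25.7% (labelled KO) and 13.9% (labelled WT) of its microglia-like level, and the summed microglial markers stood at 23.3% and 14.0%. In astrocyte-like cells the Trem2 values were 32.0% and 24.1%, beside 31.7% and 25.3% for the markers. In endothelial-like cells they were 7.69% and 7.86%, beside 9.08% and 9.81%. In neutrophil-like cells they were 61.9% and 60.0%, beside 59.4% and 61.3%. Olfactory ensheathing glia-like cells departed most, with Trem2 at 6.56% (labelled KO) and 10.5% (labelled WT), beside 14.1% and 16.3% for the markers. In T cell-like, astrocyte-like and neutrophil-like cells Trem2 thus lay slightly above the markers labelled KO and slightly below them labelled WT. In endothelial-like and olfactory ensheathing glia-like cells it was below them in both libraries. Macrophage-like cells were the class furthest above the markers, with Trem2 at 74.9% (labelled KO) and 67.0% (labelled WT) of its microglia-like level against 60.3% and 50.3% for the markers. Tyrobp was above the marker line in most classes, but not in olfactory ensheathing glia-like cells. In monocyte-like cells it was at 84.6% (labelled KO) and 73.3% (labelled WT) of its microglia-like level against 36.1% and 35.2% for the markers. The Tyrobp values were 98.3% and 106% in neutrophil-like cells and 95.6% and 90.0% in macrophage-like cells (labelled KO and WT).

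**Figure D1:**
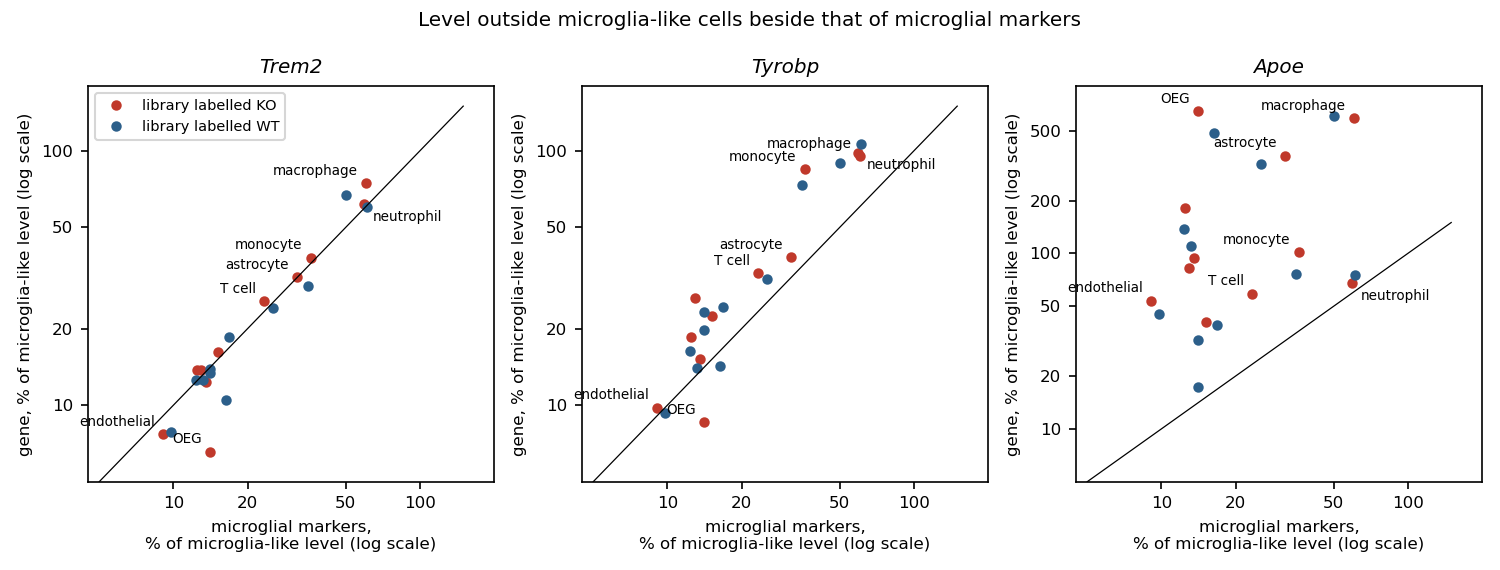
Level of Trem2, Tyrobp and Apoe in each cell class outside the microglia-like cells (vertical axis) against the summed level of the microglial markers in the same class (horizontal axis), both as a percentage of the microglia-like level of the same library, on log scales; 1 point per class and library, and the line marks equality. OEG stands for olfactory ensheathing glia-like cells. Trem2 lay near the line in most classes, and Apoe lay above it in every class, with olfactory ensheathing glia-like cells at 647% (labelled KO) and 485% (labelled WT) of the microglia-like level.

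Apoe was not a microglial gene by level. It was highest in olfactory ensheathing glia-like cells (24814 CPM labelled KO, 20648 CPM labelled WT) and in macrophage-like cells (22700 CPM labelled KO, 25799 CPM labelled WT), and the order of these classes differed between the libraries. Astrocyte-like cells, a known main source of brain APOE, held 13827 CPM labelled KO and 13764 CPM labelled WT. Microglia-like cells held 3833 CPM labelled KO and 4258 CPM labelled WT, below ependymal or choroid plexus-like cells in both libraries.

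The other genes mostly led in classes other than microglia-like cells. Spp1, which encodes the secreted phosphoprotein osteopontin that binds integrins and CD44, was highest in fibroblast-like cells, at 1158 CPM labelled KO and 1464 CPM labelled WT. Axl, a receptor kinase that recognises GAS6 on dying cells, was highest in mural-like cells, which surround vessels, at 139 CPM labelled KO and 175 CPM labelled WT, followed by macrophage-like cells at 84.4 and 66.5 CPM. Cst7, the endosomal protease inhibitor cystatin F, was highest in T cell-like cells, at 95.6 CPM labelled KO and 95.7 CPM labelled WT, a ratio of 0.999. A Cst7 UMI was read in 34.2% of T cell-like cells labelled KO and 39.9% labelled WT. Itgax, the integrin chain CD11c, was highest in monocyte-like cells, at 25.7 CPM labelled KO and 53.6 CPM labelled WT, on 36 and 80 UMIs. Lpl, the lipase that frees fatty acids from lipoproteins, had no clear leading class in the library labelled KO, where in the order macrophage-like, microglia-like, monocyte-like and mural-like each interval overlapped the next. In the library labelled WT its highest level was in microglia-like cells (71.5 CPM). Gpnmb, a membrane glycoprotein of lipid-laden macrophages, was below 40 CPM in every class.

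**Figure D2:**
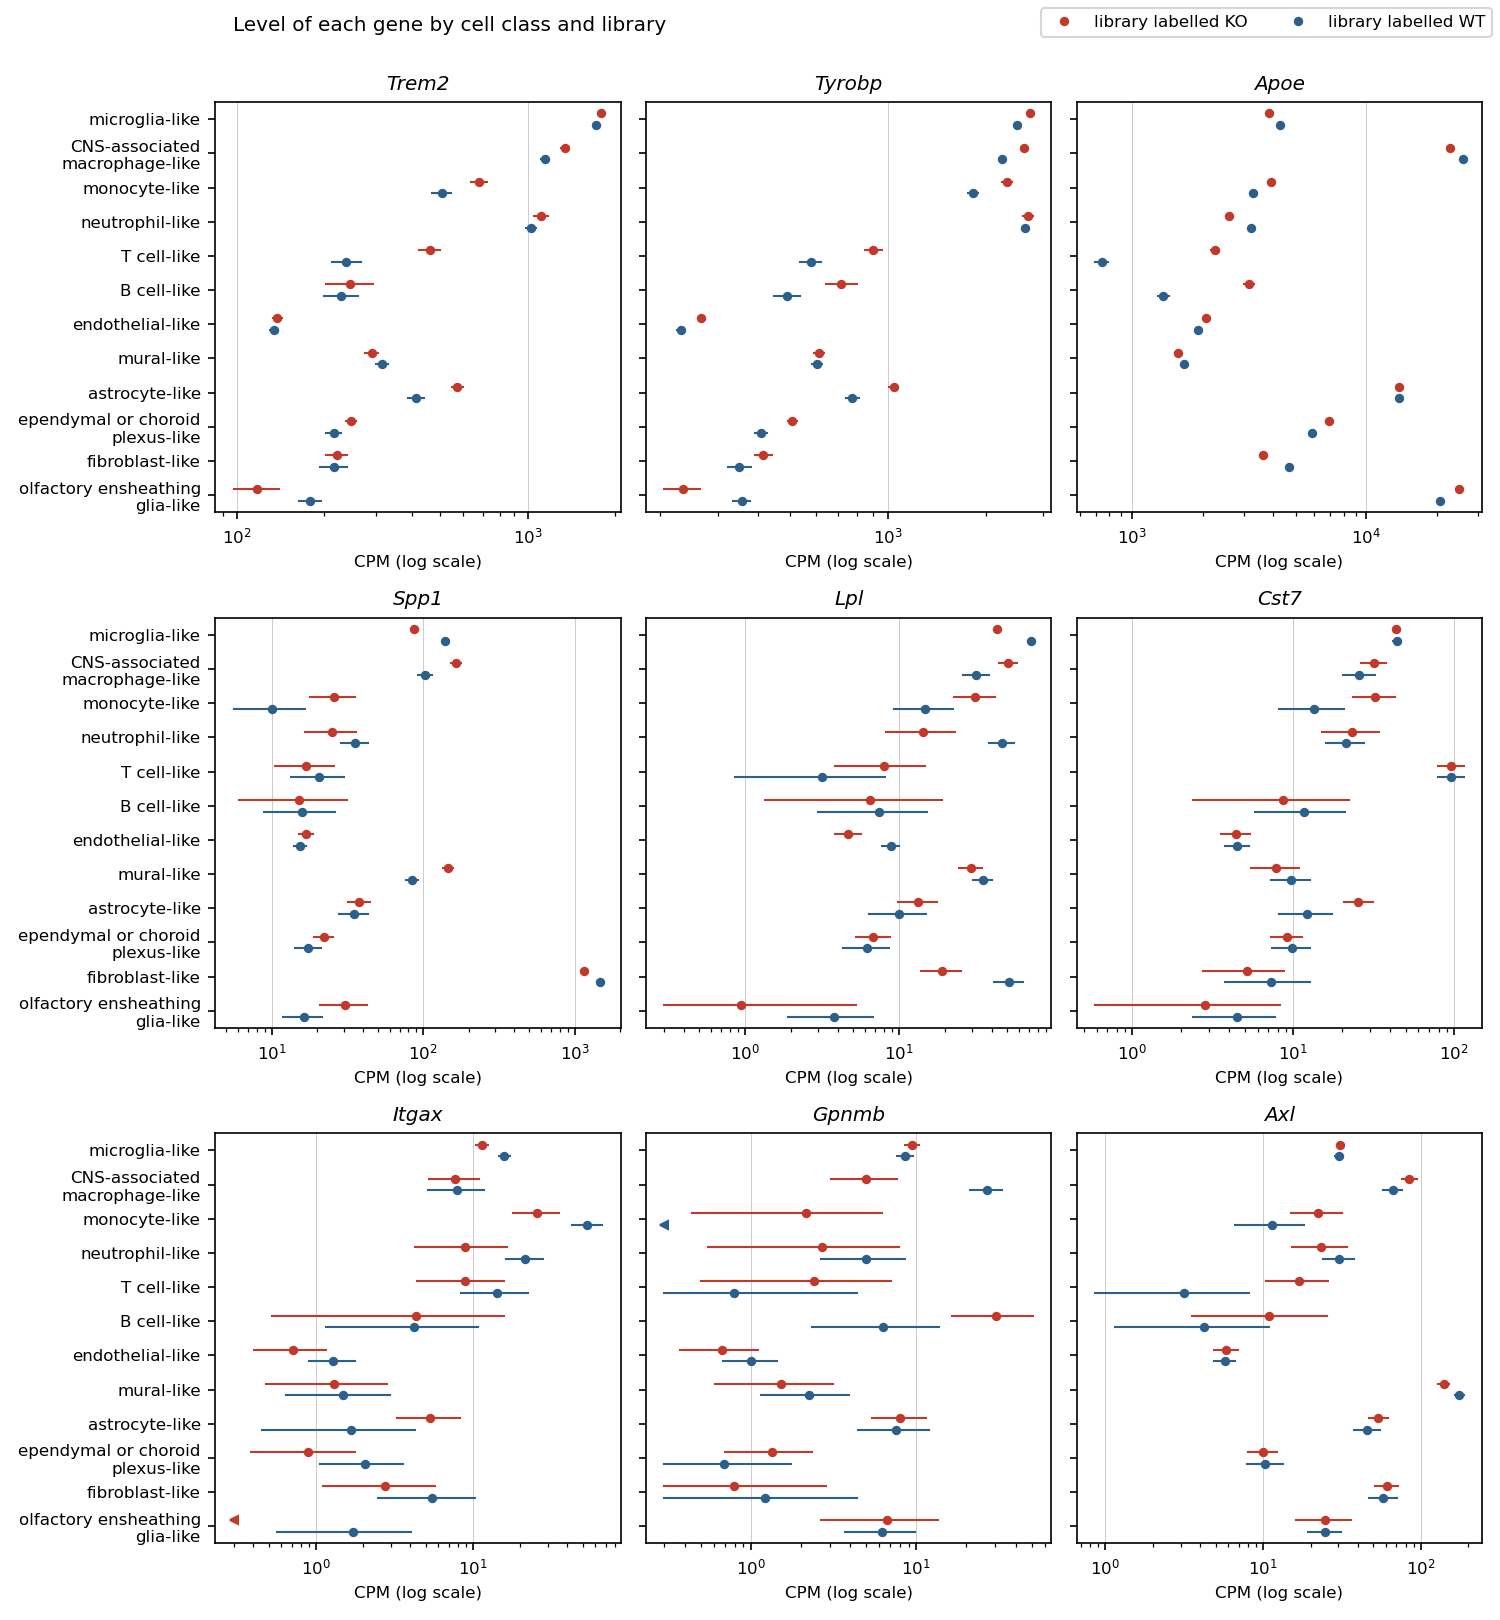
Level of each of the 9 genes (CPM, log scale) in each of the 12 cell classes, with the library labelled KO above the library labelled WT in each class; points are sums over the cells of 1 library and bars are exact 95% counting intervals, and a left-pointing mark stands for a class with no UMI of the gene. Trem2 peaks in microglia-like cells (1791 and 1713 CPM, labelled KO and WT), whereas Spp1 peaks in fibroblast-like and Axl in mural-like cells.

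In microglia-like cells, the receptor, its adaptor and APOE differed little between the libraries. Trem2 was at a ratio of 1.05 (labelled KO over labelled WT), Tyrobp at 1.10 (2734 and 2486 CPM) and Apoe at 0.900. Of the low genes, Cst7 (43.4 CPM labelled KO, 43.9 CPM labelled WT; ratio 0.989), Axl (30.9 and 30.2 CPM; 1.02) and Gpnmb (9.44 and 8.58 CPM; 1.10, 0.951 to 1.27) were also close. Trem2 was read in 96.3% of microglia-like cells labelled KO and 93.7% labelled WT, whose median depths were 6627.5 and 7901 UMIs, and in 53.9% and 60.7% of endothelial-like cells, at 5398 and 6797.5 UMIs. Spp1, Lpl and Itgax were lower in the library labelled KO. Spp1 was at 87.4 CPM labelled KO, against 140 CPM labelled WT (ratio 0.623, 0.598 to 0.649). Lpl was at 43.3 CPM labelled KO, against 71.5 CPM labelled WT (ratio 0.606, 0.571 to 0.642). Itgax was at 11.4 CPM labelled KO, against 15.9 CPM labelled WT (ratio 0.720, 0.639 to 0.811).

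A gene was counted as higher or lower where the ratio of (CPM + 10) was at most 0.8 or at least the inverse of that, a size rule and not a test, among genes with at least 20 UMIs over both libraries. By this rule none of the 9 genes was higher in microglia-like cells labelled KO, where 1.1% of 16201 genes were, and 2 (Spp1 and Lpl) were lower, where 1.3% of all genes were. The median log2 ratio of the 9 genes was -0.013, beside 0.0022 over all genes. The 2 genes are a small count, and the next values show how few cells they came from.

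The Spp1 sum rested on a handful of cells. A single microglia-like cell labelled WT carried 2041 Spp1 UMIs, 36.2% of the class total of 5644, whereas the highest cell labelled KO carried 311 of 3760. It took 12 cells to hold 50% of the Spp1 UMIs in the library labelled KO, and 3 cells in the library labelled WT. Spp1 was read in 14.7% of microglia-like cells labelled KO and in 15.6% of those labelled WT, and in 3.54% (3.01 to 4.14%) and 3.62% (3.05 to 4.28%) once each cell was thinned to 1000 UMIs. In endothelial-like cells, a class not known for Spp1, the thinned Spp1 shares were 2.17% and 2.19%. At least 10 Spp1 UMIs were found in 46 cells (1.04%) labelled KO and 47 cells (1.23%) labelled WT. Without the highest cell of each library the levels were 80.2 CPM labelled KO and 89.6 CPM labelled WT (ratio 0.90, 0.85 to 0.94). Without the 10 highest cells of each library they were 48.6 and 45.2 CPM (ratio 1.08, 1.01 to 1.15), so the direction of the Spp1 difference turned on 10 cells per library.

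Lpl behaved otherwise. Its 10 highest cells held 30.4% of its UMIs in the library labelled KO and 27.4% in the library labelled WT, and without them the levels were 30.4 CPM labelled KO and 52.3 CPM labelled WT (ratio 0.58, 0.54 to 0.62). Cells with at least 10 Lpl UMIs made up 0.70% (0.48 to 1.00%) of microglia-like cells labelled KO and 1.59% (1.22 to 2.04%) of those labelled WT, 31 and 61 cells. An Lpl UMI was read in 11.6% and 12.98% of cells, labelled KO and WT, and in 2.19% and 2.68% after thinning, against 0.471% and 0.856% of thinned endothelial-like cells. The Itgax ratio was 0.67 (0.59 to 0.77) without the 10 highest cells. Gpnmb was concentrated like Spp1, with 65.3% (labelled KO) and 67.0% (labelled WT) of its UMIs in 10 cells, whereas the corresponding Axl shares were 7.0% and 7.7%.

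**Figure D3:**
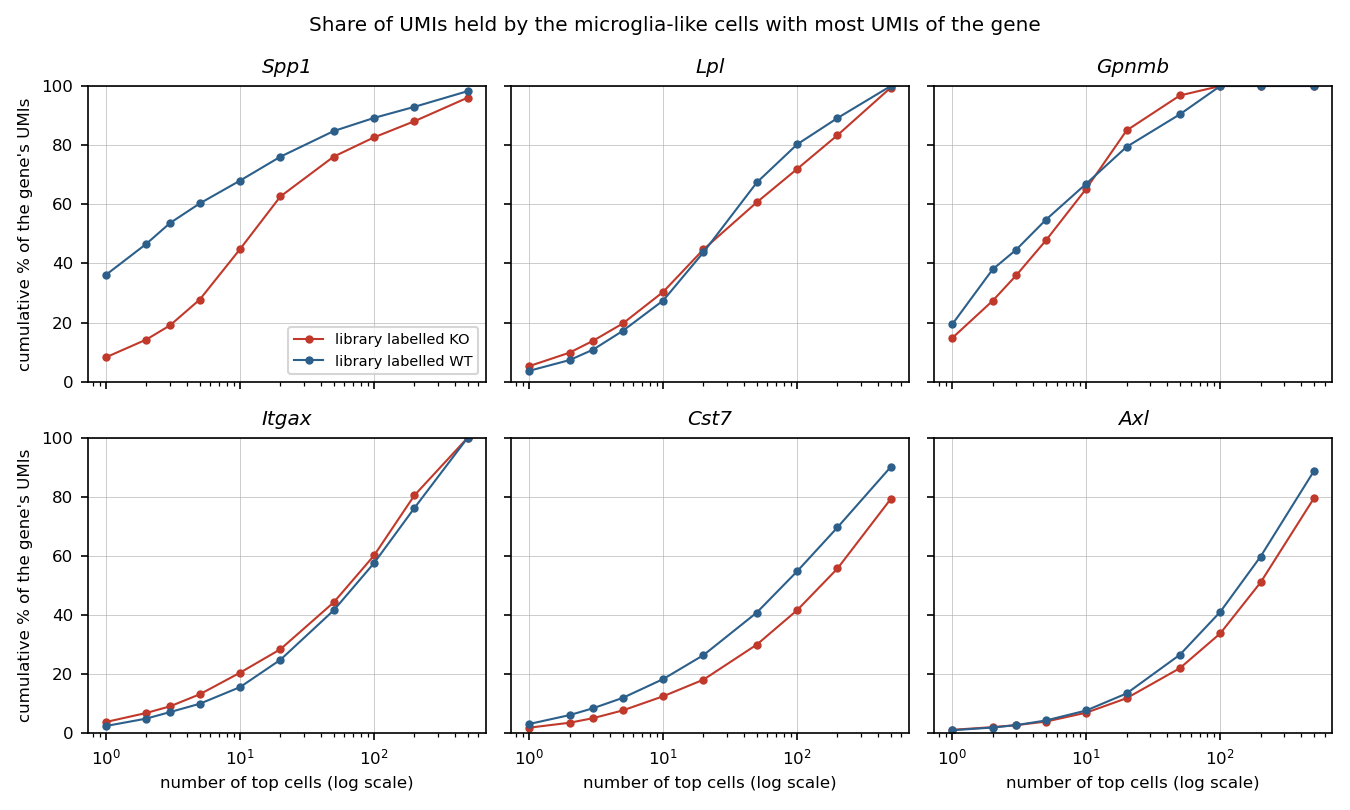
Cumulative percentage of each gene's UMIs (vertical axis) held by its highest microglia-like cells, ranked by UMIs (horizontal axis, log scale), with 1 line per library. The Spp1 line labelled WT starts at 36.2% with its first cell and the line labelled KO at 8.27%, while Axl rises slowly in both libraries, to 7.0% and 7.7% at 10 cells.

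Microglia-like cells were sub-clustered, again without the 9 genes, and 1 of 10 sub-clusters stood out for most of the low genes. Sub-cluster 1 was led by Lgals3 (galectin-3), Alcam (an adhesion molecule), Fabp5 (a fatty acid carrier), Cybb (the catalytic subunit of the phagocyte NADPH oxidase) and Lilrb4a (an inhibitory receptor). It held 178 microglia-like cells labelled KO (4.04%, 3.48 to 4.66%) and 258 labelled WT (6.74%, 5.96 to 7.58%), with a median of 10295 and 12959 UMIs. Its microglial markers summed to 15017 CPM labelled KO and 15055 CPM labelled WT. In the library labelled KO it contributed 68.2% of the Spp1, 57.9% of the Lpl, 41.9% of the Itgax, 90.9% of the Gpnmb, 34.0% of the Apoe and 6.92% of the Trem2 UMIs of the class. In the library labelled WT these shares were 83.7%, 73.9%, 50.7%, 57.1%, 51.9% and 14.0%. It held less of Cst7, at 19.4% labelled KO and 46.6% labelled WT, and of Axl, at 22.7% and 41.1%. Apoe, Spp1, Lpl, Cst7, Itgax, Gpnmb and Axl each stood higher in sub-cluster 1 than in the rest of the class in both libraries, which describes cells that were grouped by other genes of the same profiles. Some of these levels were also raised in sub-cluster 9, led by Top2a and Mki67 (13 cells labelled KO, 16 labelled WT). Over both libraries it held Cst7 at 153, Lpl at 275 and Spp1 at 178 CPM, but Itgax at 9.01 and Gpnmb at 6.76 CPM. The corresponding values in sub-cluster 1 were 149, 403, 917, 66.7 and 71.2 CPM. In sub-cluster 6, led by Flt1 and Itm2a (62 cells labelled KO, 56 labelled WT), they were 62.9, 105, 89.2, 22.7 and 40.7 CPM. Those of sub-cluster 0 were 29.3, 18.2, 20.6, 8.19 and 0.903 CPM. Sub-cluster 7, led by H2-Eb1, held Cst7 at 64.4 and Axl at 49.5 CPM. The number of cells behind the sums of sub-clusters 6 and 7 is not given here.

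Within sub-cluster 1 the libraries were close for most of the genes. Lipid genes stood at 19283 CPM labelled KO and 17618 CPM labelled WT for Apoe, and at 371 and 422 CPM for Lpl (ratio 0.88). Spp1 was at 883 CPM labelled KO and 937 CPM labelled WT (ratio 0.94). Without the single highest cell of each library the Spp1 ratio was 1.46. Axl was at 104 and 98.9 CPM (labelled KO and WT), Itgax at 70.8 and 64.2 CPM, and Trem2 at 1835 and 1916 CPM. Cst7 was at 124 CPM labelled KO, against 163 CPM labelled WT (ratio 0.76). Gpnmb departed from the others, at 127 CPM labelled KO and 39.1 CPM labelled WT (ratio 3.25, 2.73 to 3.88). A Gpnmb UMI was read in 30 sub-cluster 1 cells labelled KO and 24 labelled WT, and at least 10 UMIs in 12 and 6 cells, so the Gpnmb value too comes from few cells. Without the 10 highest cells Gpnmb was at 39.0 CPM labelled KO and 5.04 CPM labelled WT.

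Outside sub-cluster 1 the direction differed from that of the whole class for some genes. Spp1 was at 29.8 CPM labelled KO and 26.2 CPM labelled WT (ratio 1.14), and Lpl at 19.6 and 21.3 CPM (ratio 0.92). Cst7 was higher in the library labelled KO, at 37.5 CPM, against 26.8 CPM labelled WT (ratio 1.40, 1.29 to 1.52). Apoe was at 2712 CPM labelled KO and 2343 CPM labelled WT (ratio 1.16), and Axl at 25.6 and 20.3 CPM (ratio 1.26). Gpnmb was at 0.923 CPM (37 UMIs) labelled KO and 4.21 CPM (148 UMIs) labelled WT, where 1 cell held 64 of the UMIs. By the size rule 1 gene (Cst7) was higher and 1 (Gpnmb) was lower in these cells labelled KO, where 1.16% of all genes were higher and 1.31% lower. This split was added after the data were seen. Within the 3 largest of the other sub-clusters the Apoe ratios were closer to 1 than over all cells outside sub-cluster 1, whereas those of Cst7 and Axl differed among sub-clusters. The Apoe ratio was 0.989 in sub-cluster 0 (led by Egr1 and Fos), 0.936 in sub-cluster 2 (led by the heat-shock genes Hspa1b and Hspa1a) and 1.05 in sub-cluster 3 (led by Ttr and the interferon-response gene Rtp4). The Cst7 ratios there were 1.41, 0.960 and 1.05, and the Axl ratios 1.14, 0.808 and 1.09. The libraries drew on these sub-clusters unequally, with 1302, 388 and 1424 cells labelled KO and 986, 1390 and 573 cells labelled WT. Apoe in sub-cluster 2 was at 1425 CPM labelled KO and 1523 CPM labelled WT, its lowest level among the sub-clusters with at least 50 cells in each library. The part of this make-up in the class ratios was not tested.

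**Figure D4:**
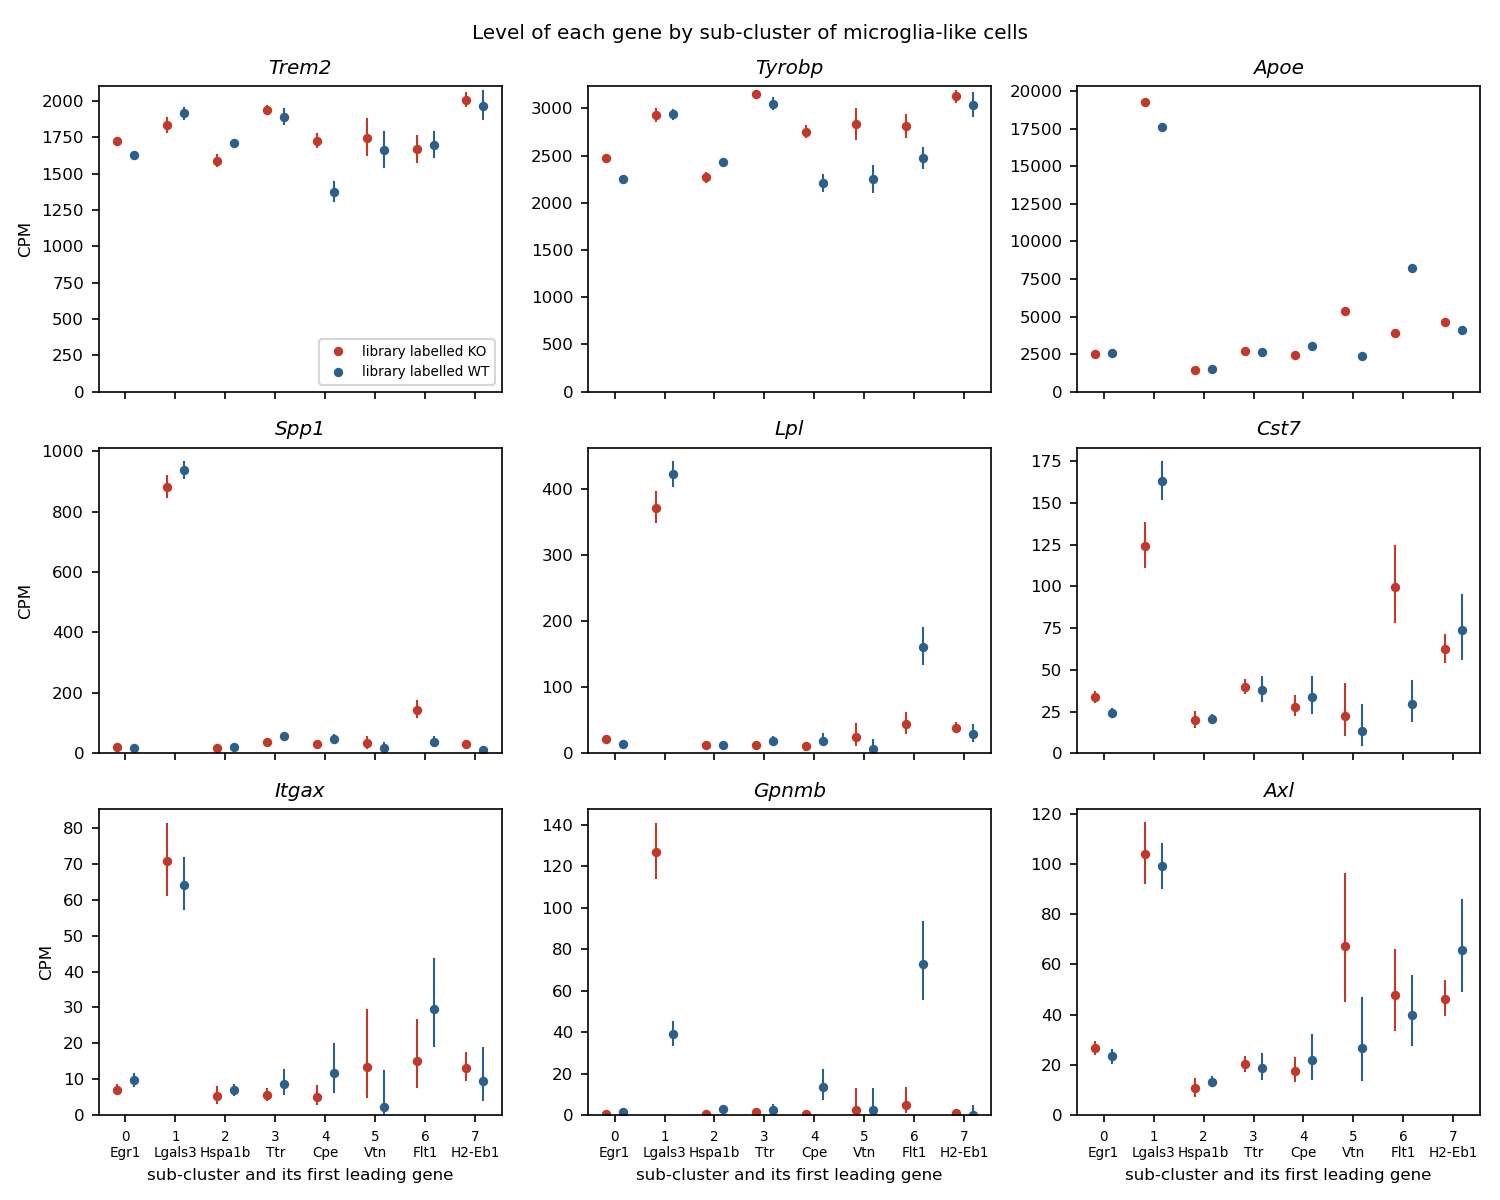
Level of each gene (CPM, linear scale from 0) in the 8 sub-clusters of microglia-like cells with at least 50 cells in each library, each named by its number and first leading gene, with the library labelled KO left of the library labelled WT; bars are exact 95% counting intervals. Sub-cluster 1 holds the highest Apoe levels (19283 and 17618 CPM, labelled KO and WT), whereas its Trem2 levels (1835 and 1916 CPM) lie within the range of the other sub-clusters.

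**Figure D5:**
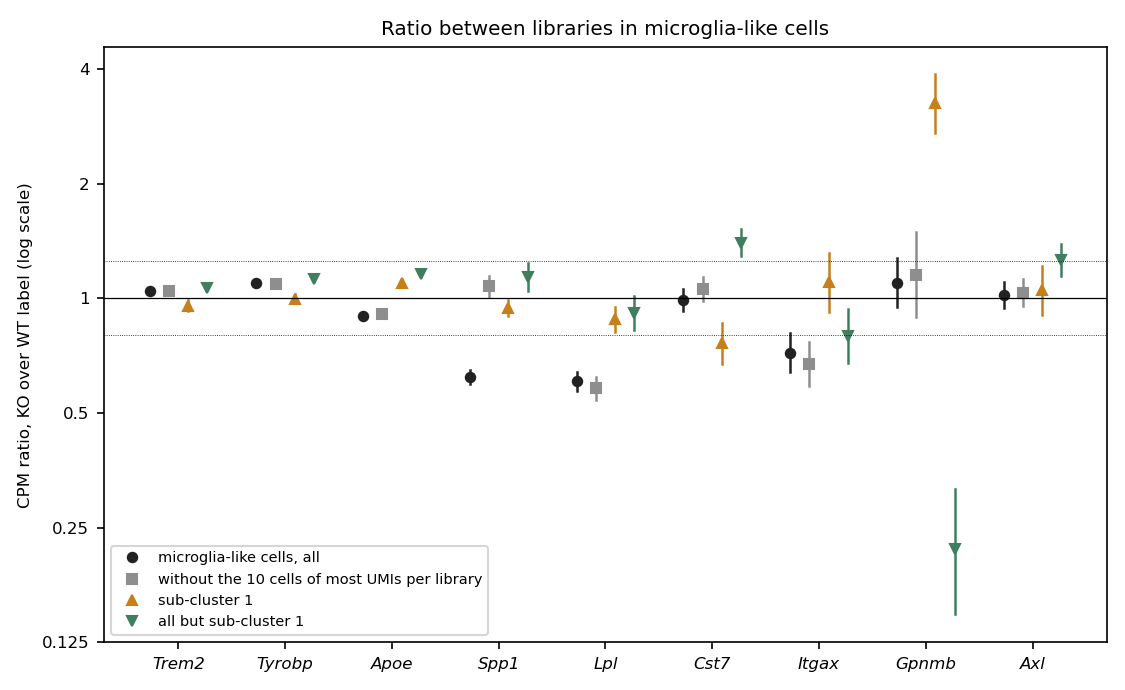
Ratio of CPM, labelled KO over labelled WT (log scale), for each gene in all microglia-like cells (circles), without the 10 cells of most UMIs in each library (squares), in sub-cluster 1 (upward triangles) and outside it (downward triangles); bars are exact 95% counting intervals, the full line marks a ratio of 1 and the dotted lines 0.8 and its inverse. Spp1 and Lpl are at 0.623 and 0.606 over the class but at 0.94 and 0.88 within sub-cluster 1, and Gpnmb is at 3.25 there. Without the highest cell of each library, which is not drawn, the Spp1 ratio within sub-cluster 1 was above 1.

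At equal depth, Spp1, Lpl and Cst7 were read more often in cells with another of these 3 than in the other cells, in both libraries. Of the 15 pairs among 6 low genes, 13 in each library were read together at a higher share than apart, most of them on few cells, and the other 2 were never read together. These were Lpl with Gpnmb and Itgax with Axl in cells labelled KO, and Itgax with Gpnmb and Gpnmb with Axl in cells labelled WT. The share over all gene pairs was not computed, so the count of 13 is not a result about this set. For some pairs the intervals overlapped: Axl was read in 4.61% (1.87 to 9.26%) of Spp1-positive cells labelled KO, against 2.51% (2.06 to 3.04%) of the others. In microglia-like cells thinned to 1000 UMIs, a Spp1 UMI was read in 23.4% (15.3 to 33.3%) of 94 Lpl-positive cells labelled KO, against 3.097% of the 4198 cells without Lpl. In the library labelled WT the shares were 17.2% (10.3 to 26.1%) of 99 and 3.25% of 3598. Axl was read in 7.45% of Lpl-positive cells and 2.48% of the other cells labelled KO, and in 14.1% and 2.08% of those labelled WT. Few cells combined several genes: of Spp1, Lpl, Cst7, Itgax, Gpnmb and Axl, 3 or more were read in 0.326% of thinned cells labelled KO (14 of 4292) and in 0.270% of those labelled WT (10 of 3697). None of the 6 was read in 89.1% and 88.1% of thinned cells, labelled KO and WT. At full depth 3 or more were read in 7.24% of cells labelled KO and 8.04% of those labelled WT, and none in 56.2% and 56.4%.

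In CNS-associated macrophage-like cells (427 labelled KO, 331 labelled WT), Spp1 and Lpl were higher in the library labelled KO and Gpnmb was lower. By the size rule 2 of the 9 genes were higher, where 5.4% of 11683 genes were, and 1 was lower, where 8.82% were. Spp1 was at 164 CPM labelled KO and 103 CPM labelled WT (ratio 1.60, 1.39 to 1.83), Lpl at 51.3 and 31.8 CPM (1.61, 1.26 to 2.07), and Gpnmb at 4.98 and 26.7 CPM on 20 and 84 UMIs. The 10 highest cells held 89.4% of the Spp1 UMIs in the library labelled KO and 86.7% in the library labelled WT, and the single highest cells held 345 and 130. For Lpl the 10 highest cells held 82.5% and 83.0%, and 1 cell labelled WT carried 58 of the 100 UMIs. For Gpnmb 1 cell labelled KO carried 14 of the 20 UMIs, and 10 cells labelled WT carried 83 of the 84. Without the 10 highest cells Spp1 was at 18.4 CPM labelled KO and 15.3 CPM labelled WT. Trem2 (1341 and 1147 CPM, labelled KO and WT) and Tyrobp (2614 and 2238 CPM) were each at a ratio of 1.17. In the same cells the microglial markers summed to 12228 CPM labelled KO and 9948 CPM labelled WT, the macrophage markers to 4935 and 5957 CPM, the ependymal or choroid plexus markers to 4582 and 2250 CPM, and the erythroid markers to 6.97 and 1228 CPM. The part of these markers in the differences was not tested.

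The macrophage result depended on which cells were counted in. An unnamed myeloid cluster led by the MHC class II genes H2-Eb1, H2-Aa, H2-Ab1 and Cd74 held 552 cells labelled KO and 328 labelled WT. There Spp1 was at 75.7 CPM labelled KO and 418 CPM labelled WT (ratio 0.181), Lpl at 40.9 and 106 CPM (0.386), Cst7 at 34.4 and 62.8 CPM (0.547), and Itgax at 16.8 and 38.0 CPM (0.441). In it 5 of the 9 genes were lower in the library labelled KO, where 6.2% of all genes were, and 1 (Trem2, 1369 and 1078 CPM) was higher, where 4.95% were. In the same cluster the microglial markers summed to 13732 CPM labelled KO and 10490 CPM labelled WT, the dendritic cell markers to 355 and 540 CPM, and the erythroid markers to 6.67 and 769.5 CPM, and their part in the differences was not tested. Without the 10 highest cells of each gene and library the ratios there were 0.77 for Spp1, 0.73 for Lpl and 0.97 for Cst7. With this cluster counted among the macrophage-like cells the log2 ratio was -1.20 for Spp1 and -0.55 for Lpl, the opposite direction. At a finer clustering (Leiden resolution 2), which put 986 cells labelled KO and 646 labelled WT in the class, they were -1.45 and -0.98. That class took in a cluster led by the same MHC class II genes (556 cells labelled KO, 322 labelled WT). The finer clustering is thus not independent of the setting before it. With cells thinned to 1000 UMIs the Lpl value was -0.74, on 3 UMIs labelled KO and 6 labelled WT.

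Among the other immune classes, monocyte-like cells labelled KO had 6 of 8 measured genes higher, where 13.1% of all genes were, and 1 lower, where 14.9% were. Trem2 was at 681 CPM labelled KO and 506 CPM labelled WT, Tyrobp at 2313 and 1824 CPM, and Itgax at 25.7 and 53.6 CPM (ratio 0.480, 0.314 to 0.719). The other 4 calls rested on few UMIs: 36 labelled KO and 15 labelled WT for Spp1, 44 and 22 for Lpl, 45 and 20 for Cst7, and 31 and 17 for Axl. A single cell labelled KO held 24 of the Lpl UMIs, and without the highest cell of each library the Lpl log2 ratio was 0.28, short of the size rule. The monocyte-like cells also differed in make-up: Ly6c2, a marker of classical monocytes, was at 1636 CPM labelled KO and 357 CPM labelled WT, and Ace, a marker of non-classical ones, at 138 and 194 CPM. The part of that difference in the ratios was not tested. T cell-like cells labelled KO had 4 of 7 measured genes higher, where 22.4% of all genes were, and 1 lower, where 9.51% were. Apoe there was at 2258 CPM labelled KO and 741 CPM labelled WT, with 658 of its UMIs in 1 cell labelled KO. Trem2 and Tyrobp were also higher there, beside the higher microglial markers given above, whose part was not tested. In B cell-like cells Tyrobp, Apoe and Gpnmb were higher in the library labelled KO, where 18.2% of all genes were, and Gpnmb rested on 14 and 6 UMIs (labelled KO and WT); none was lower, where 28.1% were. In neutrophil-like cells Spp1, Lpl and Itgax were lower, where 26.2% of all genes were, and none was higher, where 12.9% were.

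In the vascular and barrier classes, Spp1 was higher in mural-like and lower in fibroblast-like cells labelled KO. In mural-like cells it was at 145 CPM labelled KO and 84.4 CPM labelled WT (ratio 1.72), the 1 gene of the set called higher, where 4.05% of all genes were, and none was lower, where 3.75% were. The ratio was above 1 in each of the 3 mural-like clusters, at 1.75, 1.71 and 3.14. In fibroblast-like cells 3 genes were lower in the library labelled KO, where 11.0% of all genes were, and none was higher, where 9.64% were. These were Spp1 at 1158 and 1464 CPM (labelled KO and WT), Lpl at 18.9 and 52.2 CPM, and Apoe at 3629 and 4688 CPM. Without the 10 highest cells the fibroblast Spp1 ratio was 0.96. Endothelial-like cells had 1 gene lower (Lpl, 4.70 CPM labelled KO and 8.85 CPM labelled WT), where 1.1% of all genes were, and none higher, where 1.45% were. In astrocyte-like cells Trem2, Tyrobp, Cst7 and Itgax were higher in the library labelled KO, where 11.4% of all genes were, beside the higher microglial markers given above, and none was lower, where 9.19% were. In olfactory ensheathing glia-like cells Spp1 was higher, where 9.63% of all genes were, and Trem2 and Tyrobp were lower, where 15.2% were. Other myeloid transcripts were lower there too: the microglial markers summed to 2861 CPM labelled KO and 3220 CPM labelled WT, Lyz2 stood at a ratio of 0.415 and Cd68 at 0.285, and their part was not tested. No gene of the set passed the size rule in ependymal or choroid plexus-like cells, where 1.42% of all genes were higher and 2.97% lower.

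Most partners of these genes differed little between the libraries in microglia-like cells. None of the 16 measured genes of TREM2 signalling passed the size rule in either direction, with a median log2 ratio of -0.02 and extremes at Adam10, a sheddase of TREM2 (-0.14), and Pik3cd, a PI3-kinase subunit (0.06). None of the 15 measured genes of lipid handling, the 3 of the TAM receptors and their ligands (Mertk, Pros1 and Gas6) or the 8 osteopontin receptors and integrins passed it either. Of 26 further disease-associated genes, 3 were lower in the library labelled KO (1.3% of all genes were) and none higher (1.1% were): Mmp12, a macrophage elastase (3.65 CPM labelled KO, 16.0 CPM labelled WT), Lilrb4a (18.3 and 28.8 CPM) and Lgals3 (42.3 and 56.9 CPM). Lilrb4a and Lgals3 also led sub-cluster 1, and within it Lgals3 was at 390 CPM labelled KO and 340 CPM labelled WT and Lilrb4a at 134 and 154 CPM (ratio 0.875, 0.773 to 0.989). B2m, the light chain of MHC class I, had the highest log2 ratio of that list, at 0.31 (2296 and 1848 CPM, labelled KO and WT). Of 11 transcription factors Egr2 was lower (10.9 and 18.1 CPM) and none was higher.

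The genes whose levels most resembled each member's over the 24 combinations of class and library were taken from 13831 candidates by Pearson's r of the log levels, which share library and depth. Trem2 was closest to the complement genes C1qc, C1qa and C1qb (r = 0.996, 0.995 and 0.995), and Tyrobp to Fcer1g, another signalling adaptor (0.99). Cst7 was closest to Ddx43 and Rasal3 (0.92 each), Itgax to Tnfrsf1b, a TNF receptor (0.92), Spp1 to Clmp (0.90) and Axl to Etv1, a transcription factor (0.90). Lpl was closest to Naalad2 (0.91) and Apoe to Hsd17b12 (0.91). Gpnmb had the loosest match, with Usp28 at 0.74.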

How the data were processed

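Single-cell RNA was read with 10x 3′ v3.1 chemistry in 1 library per genotype; the deposited values are whole-number UMI counts per gene and barcode, made by the authors with Cell Ranger 7.0.1 (STAR as aligner; Seurat 3.1.1 is also named), per the submitters' processing notes. The members and lists were chosen with earlier results of these data known. Cells with at least 300 genes, 500 UMIs and at most 10% mitochondrial UMIs were kept (17659 labelled KO, 16601 labelled WT passed). Scrublet, run in scanpy 1.11.5 (Python 3.11.15), marked doublets, which were removed; it marked fewer than expected from loading. Cells were clustered by Leiden (python-igraph 0.11.9; 2000 variable genes without the members, 30 components, 15 neighbours, resolution 1), and microglia-like cells again at resolution 0.6. A cluster was named where at least 3 markers of a class reached 25% of its cells and a log2 fold of 1. It was left unnamed where markers or leading genes of another class came close. A rule on low depth applied only where no leading gene was a marker, and left no cluster unnamed. Low-depth clusters were thus named too, such as an astrocyte-like cluster with a median of 764.5 UMIs. The markers were listed beforehand; this rule was refined after the data were seen.

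For each class and library, UMIs were added up and divided by the class total (CPM). Ratios are of CPM, labelled KO over labelled WT, and log2 ratios add 10 CPM. Intervals (scipy 1.17.1) are exact Poisson, conditional binomial and Clopper-Pearson at 95%, cover counting error only, and treat UMIs as independent. Numpy 2.4.6, pandas 2.3.3, scikit-learn 1.9.0 and matplotlib 3.10.9 were also used. The genes named were the members in every class with at least 50 cells per library, up to 2 genes at each end of each pathway list, and the 3 genes of closest pattern per member, of which the text gives a choice. The calculations were tested on simulated data. Platelet-like and oligodendrocyte-like cells were too few to compare.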

Additional observations from a re-analysis of the deposited data

Results flagged for a closer look

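Spp1 and Lpl moved in opposite directions between the libraries in 2 neighbouring macrophage classes. Spp1 was higher in CNS-associated macrophage-like cells labelled KO and lower in microglia-like cells labelled KO, a difference of 1.2504 between the log2 ratios of the 2 classes. For Lpl the same difference was 1.16. Neither difference was tested, since each class has 1 library per genotype. The Spp1 UMIs of macrophage-like cells lay to 89.4% (labelled KO) and 86.7% (labelled WT) in 10 cells, and the Lpl UMIs to 82.5% and 83.0%. The Spp1 direction in both classes and the Lpl direction in macrophage-like cells depended on the cells counted. In microglia-like cells the Lpl log2 ratio kept its sign over the settings tried, from -0.710 to -0.085. The value of -0.085 was that without sub-cluster 1, so the size of the Lpl difference also depended on the cells counted. In microglia-like cells the Spp1 ratio was 1.08 without the 10 highest cells of each library and 1.14 outside sub-cluster 1. In macrophage-like cells the log2 ratios of Spp1 and Lpl were -1.20 and -0.55 with the unnamed MHC class II cluster counted in, and -1.45 and -0.98 at Leiden resolution 2. The class at resolution 2 also took in a cluster led by MHC class II genes, so these settings are not independent.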

How the results depend on the processing

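The share of all genes called under the same setting stands in brackets. In microglia-like cells the count of lower genes was 0 at a fold of 2 (0.0123%). Without sub-cluster 1 it was 1 (1.31%) with 1 higher (1.16%) and Spp1 at a log2 ratio of 0.14, and without the 10 cells of most UMIs of each gene and library, which has no counterpart over all genes, it was 1 with Spp1 at 0.086. Both alternatives were chosen after seeing the data. In macrophage-like cells 1 gene was higher with 50 CPM added (0.942%) and 0 at a fold of 2 (0.188%). With cells thinned to 1000 UMIs the median log2 ratio was 0.35, 4 genes were higher (21.6%) and 0 lower (18.6%), with Lpl at -0.74 but uncounted, its 9 UMIs being under the minimum of 20. With cells assigned by their own marker UMIs (55 labelled KO, 53 labelled WT) 0 genes were lower (25.1%), with Spp1 at -1.02 but uncounted on 12 UMIs. At Leiden resolution 2 (986 and 646 cells, labelled KO and WT) the median was -0.57, 0 genes were higher (2.22%) and 6 lower (5.22%), with Spp1 at -1.45 and Lpl at -0.98. The class at resolution 2 took in a cluster led by MHC class II genes, so the next setting is not independent of it. With the unnamed MHC class II cluster counted in, added after seeing the data, the median was -0.32, 0 genes were higher (2.39%) and 4 lower (5.48%), with Spp1 at -1.20 and Lpl at -0.55. Without the 10 cells of most UMIs 0 genes were lower. Of 117 recomputed log2 ratios in microglia-like cells, 81 stayed within counting error, 34 moved beyond it and 2 reversed; of 97 in macrophage-like cells, 59, 32 and 6 did. All 18 shares of microglia-like cells with a UMI moved on thinning, which was fixed in advance because thinning removes UMIs from the cells. The cause of the shifts in the log2 ratios was not tested. No paired analysis was possible because there was 1 library per genotype. With 1 library each, differences between animals, dissociations and libraries cannot be told apart from genotype.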
